A study of Mus musculus with 4 samples.

Results

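The 10 genes described here, Mzb1, Derl3, Prdm1, Irf4, Xbp1, Sdc1, Creld2, Fkbp11, Eaf2 and Pou2af1, belong to the programme by which a B cell turns into an antibody-secreting plasma cell. They were chosen by symbol, with no measured value in the rule, from the 41079 genes of a mouse lung RNA-seq table, and all 10 were found in it and passed a minimum of 10 counts in the higher library of every comparison. The table holds 4 lung libraries, 1 per condition: WT and Rab44-KO mice, each normal or OVA-induced, named normal WT, normal KO, OVA WT and OVA KO. WT and Rab44-KO littermates were on a C57BL/6 background and 8 to 14 weeks old, and the KO animals carried a Rab44 gene edited by CRISPR/Cas9. OVA-induced mice of both genotypes were sensitized intraperitoneally with 100 μg ovalbumin (OVA) and alum on days 0, 7 and 14, were challenged through the nose with 100 μg OVA in 50 μL on each of days 17 to 20, and gave their lungs on day 21. Normal mice are labelled as untreated, although the protocol text beside that label also speaks of a PBS challenge. How many mice stand behind each library is not stated in the sources used here. With 1 library per condition, no difference below has a replicate check, none has a p-value, and each compares libraries rather than conditions.

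In a B cell that becomes a plasma cell, the transcription factors IRF4 and Blimp-1 (the product of Prdm1) shut down the B cell programme, and XBP1, whose mRNA is spliced by the endoplasmic reticulum (ER) stress sensor IRE1, enlarges the ER. The enlarged ER then needs chaperones and a disposal route for misfolded chains, which is where Mzb1, Derl3, Creld2 and Fkbp11 act. In allergic lung, plasma cells are known as a local source of antibody. Several of the genes are also used by other lung cells: Sdc1 and Xbp1 by epithelium, Irf4 and Prdm1 by T cells and macrophages. In whole tissue, fewer cells of a type and less RNA per cell cannot be told apart.

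Counts per library summed to between 18112901 and 19910236, and 24316 to 25003 genes were detected. Rab44 had 251 counts in normal WT, 1 in normal KO, 810 in OVA WT and 0 in OVA KO lungs, where a floor of 3 counts is 0.154 CPM, so both KO libraries go with their label. The 8 lung marker genes used to check the tissue all passed the count minimum, and of 6 salivary gland genes only Amy1 did. The methods describe female mice, but the Y-linked genes Ddx3y, Eif2s3y, Kdm5d and Uty together had 3344 to 4937 counts in each of the 4 libraries, so these libraries go against that description. Xist, the RNA of the inactive X chromosome, had 41, 40 and 72 counts in the normal WT, normal KO and OVA KO libraries and 538 in OVA WT. The OVA WT library, the one in which most of the 10 genes are highest, is therefore also the one with most Xist, and the part of this in the results was not tested. No library could be left out, because each is the only one of its condition.

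Levels are given as CPM, the count of a gene relative to the total of its library, scaled by edgeR's TMM method, and the log2 fold change (log2FC) is the log2 ratio of 2 CPM values. Ranges in parentheses are exact 95% intervals, which cover counting error only. A gene is called over 2-fold when its log2FC is beyond 1 and the higher library has at least 10 counts. Beside the first count of called genes in each comparison stands the share of all genes called in the same way, against which later counts in that comparison are also to be read.

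OVA KO lungs had less mRNA of most of the 10 genes than OVA WT lungs. Mzb1, Fkbp11, Irf4, Eaf2 and Derl3 were between 2.21-fold and 5.2-fold lower, Creld2 was 1.63-fold lower, and Pou2af1, Sdc1, Xbp1 and Prdm1 differed by at most 1.29-fold. The 5 of 10 genes over 2-fold lower stand beside 7.34% of 19259 genes that were lower by this rule, and 0 of 10 were over 2-fold higher, beside 8.4%. The median log2FC of the 10 was -0.93, against -0.02 over all genes. It was -0.60 with the deposited TPM, a scale on which the median of all genes stands 0.32 higher in this comparison. With TPM the genes over 2-fold lower were 4, since Derl3 came within 2-fold, and so they were with the trend along gene length removed. All 10 had at least 100 counts in the higher of these libraries, and at that minimum 4.34% of 13704 genes were over 2-fold lower.

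**Figure D1:**
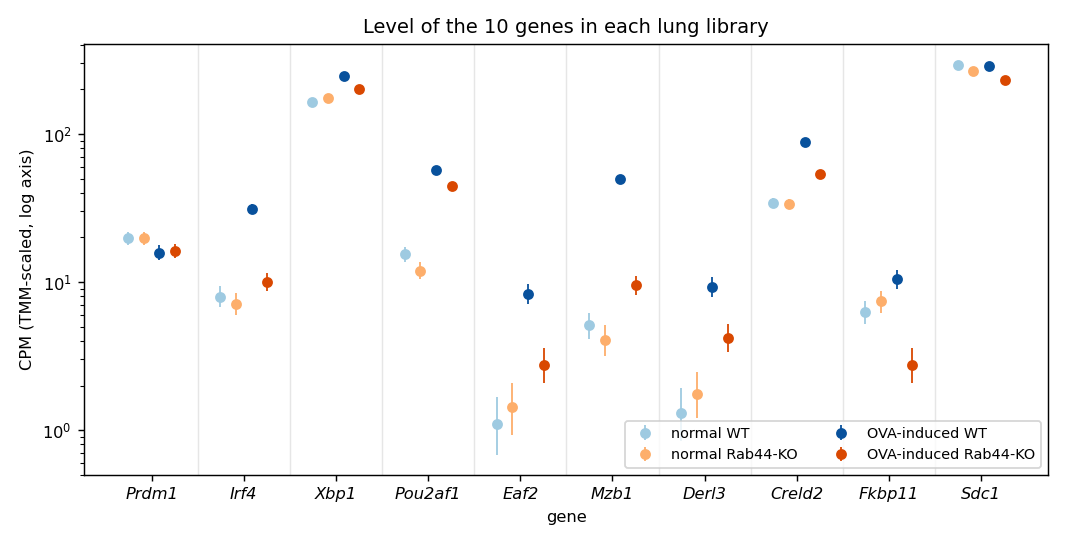
Level of each of the 10 genes (x axis, transcription factors first, then ER genes and Sdc1) as TMM-scaled CPM on a log axis in the 4 lung libraries, 1 point per library, with bars for the exact 95% Poisson counting interval. Mzb1 stands at 49.4 CPM in OVA WT against 4.06 to 9.49 in the other libraries, whereas Prdm1 stays between 15.8 and 19.8 CPM and Sdc1 between 232 and 291 CPM in all 4.

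Of the transcription factors and their partners, Irf4 (chromosome 13 of GRCm38, 30749226 to 30766976, forward strand), the factor that first commits a B cell to the plasma cell fate, had 153 counts (7.97 CPM) in normal WT and 130 (7.12 CPM) in normal KO lungs. It had 603 counts (31.1 CPM) in OVA WT and 195 (8.65 to 11.5 CPM by its counting interval) in OVA KO lungs. Only the OVA WT library stands far above the rest. The log2FC of KO over WT was -1.64 (-1.88 to -1.40) in OVA-induced lungs and -0.16 (-0.51 to 0.19) in normal lungs.

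Eaf2 (chromosome 16, 36792884 to 36875003, reverse strand), a partner of the ELL elongation factors that act on immunoglobulin mRNA in plasma cells, was the gene with fewest counts. It had 21, 26, 161 and 54 counts in normal WT, normal KO, OVA WT and OVA KO lungs, or 1.09, 1.43, 8.31 and 2.77 CPM. The 2 normal libraries cannot be separated at this depth, since their interval runs from -0.50 to 1.28 on the log2 scale. In OVA-induced lungs Eaf2 was lower in KO by a log2FC of -1.58 (-2.06 to -1.13).

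Pou2af1 (chromosome 9, 51213708 to 51240080, forward strand) encodes OCA-B, a B cell coactivator of octamer-dependent transcription that B cells and plasma cells share. It had 297 counts (15.5 CPM) in normal WT, 218 (11.9 CPM) in normal KO, 1102 (56.9 CPM) in OVA WT and 862 (44.2 CPM) in OVA KO lungs. Both OVA-induced libraries were far above both normal ones, and KO was slightly lower in each condition. The log2FC of KO over WT was -0.37 (-0.63 to -0.12) in normal and -0.36 (-0.49 to -0.23) in OVA-induced lungs, where it was -0.04 with TPM.

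Xbp1 (chromosome 11, 5520659 to 5525893, forward strand), the factor that builds the secretory apparatus, was abundant in all libraries, with 3171 counts (165 CPM) in normal WT, 3187 (175 CPM) in normal KO, 4784 (247 CPM) in OVA WT and 3920 (201 CPM) in OVA KO lungs. Its genotype difference was 0.08 (0.01 to 0.15) in normal and -0.30 (-0.36 to -0.24) in OVA-induced lungs, where it was 0.03 with TPM. The counts do not separate its spliced from its unspliced mRNA.

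Prdm1 (chromosome 10, 44437177 to 44528501, reverse strand), which encodes Blimp-1, had 379, 361, 306 and 316 counts in normal WT, normal KO, OVA WT and OVA KO lungs, or 19.7, 19.8, 15.8 and 16.2 CPM. It was slightly lower in both OVA-induced libraries, unlike the other 4 factors, which were higher there in both genotypes. Its log2FC between genotypes was 0.00 (-0.21 to 0.21) in normal and 0.04 (-0.19 to 0.27) in OVA-induced lungs.

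Of the genes that act in the ER, Mzb1 (chromosome 18, 35647267 to 35649367, reverse strand), a B cell co-chaperone that helps to assemble IgM, differed most between the OVA-induced libraries. It had 98 counts (5.10 CPM) in normal WT, 74 (4.06 CPM) in normal KO, 956 (49.4 CPM, 46.3 to 52.6) in OVA WT and 185 (9.49 CPM, 8.17 to 11.0) in OVA KO lungs. Its log2FC of KO over WT was -2.38 (-2.61 to -2.15) in OVA-induced lungs and -0.33 (-0.79 to 0.12) in normal lungs. In GENCODE M21, 57.2% of the exon bases of Mzb1 also belong to a SPATA24 readthrough model on the same strand, and how such reads were counted is not known. Spata24 itself had 214, 189, 198 and 193 counts in the 4 libraries, without the pattern of Mzb1. None of the other 9 genes shares a 150-base window with another gene.

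Fkbp11 (chromosome 15, 98724366 to 98728198, reverse strand), an ER peptidyl-prolyl isomerase of antibody-secreting cells, had 120 counts (6.25 CPM) in normal WT and 135 (7.40 CPM) in normal KO lungs. It had 202 counts (10.4 CPM) in OVA WT and 54 (2.77 CPM) in OVA KO lungs, so the last library holds the lowest level of the 4. The log2FC of KO over WT was 0.24 (-0.12 to 0.61) in normal and -1.91 (-2.37 to -1.47) in OVA-induced lungs.

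Derl3 (chromosome 10, 75893413 to 75895941, forward strand), a Derlin that hands misfolded ER proteins to degradation, had 25, 32, 180 and 82 counts in normal WT, normal KO, OVA WT and OVA KO lungs. These are 1.30, 1.75, 9.29 and 4.21 CPM, so both OVA-induced libraries lie above the normal ones and WT is the higher of them. The genotype log2FC was 0.43 (-0.37 to 1.25) in normal and -1.14 (-1.54 to -0.76) in OVA-induced lungs, where part of the interval lies within 2-fold. The latter was -0.81 with TPM and -0.76 with the trend along gene length removed, both within 2-fold.

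Creld2 (chromosome 15, 88819646 to 88826683, forward strand), an ER protein induced by ER stress in many cell types, had 657 counts (34.2 CPM) in normal WT, 615 (33.7 CPM) in normal KO, 1702 (87.9 CPM) in OVA WT and 1048 (53.8 CPM) in OVA KO lungs. The normal libraries were alike within counting error, with a log2FC of -0.02 (-0.18 to 0.14), and the OVA KO library was lower than OVA WT by a log2FC of -0.71 (-0.82 to -0.60). With TPM and with the length trend removed, that difference was -0.38.

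Sdc1 (chromosome 12, 8771323 to 8793715, forward strand) encodes syndecan-1 or CD138, the surface proteoglycan used to sort plasma cells and also carried by epithelial cells. It had 5593, 4842, 5533 and 4524 counts in normal WT, normal KO, OVA WT and OVA KO lungs, or 291, 265, 286 and 232 CPM. On this scale WT was the higher genotype in both conditions and OVA-induced lungs were not above normal lungs in either. The genotype log2FC was -0.13 (-0.19 to -0.08) in normal and -0.30 (-0.36 to -0.24) in OVA-induced lungs, where it too was 0.03 with TPM.

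**Figure D2:**
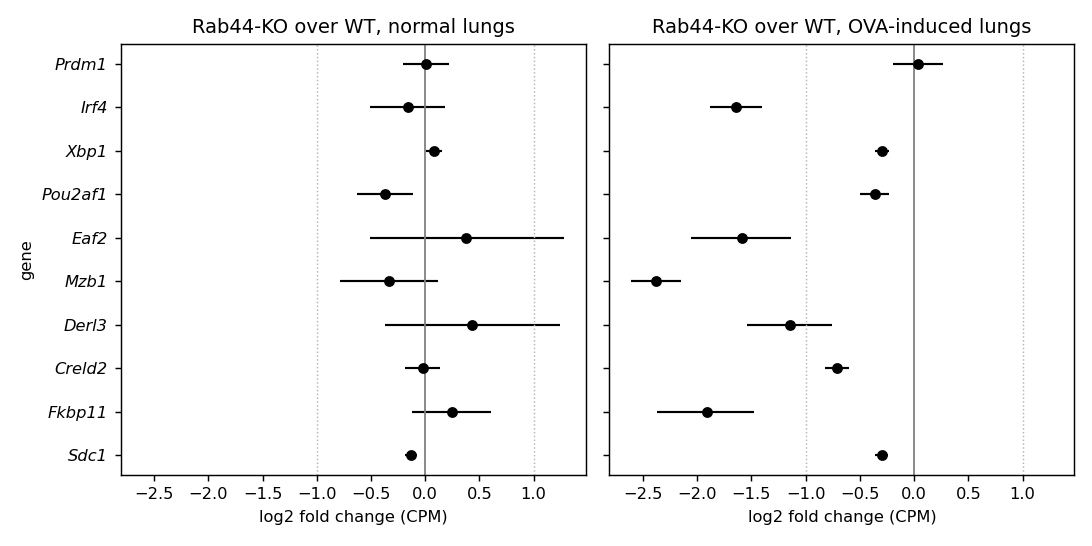
Log2FC of KO over WT (x axis) for each of the 10 genes (y axis) in normal lungs (left) and OVA-induced lungs (right), with bars for the exact 95% counting interval, a solid line at 0 and dotted lines at 2-fold. In normal lungs all 10 points lie between -0.37 and 0.43, and in OVA-induced lungs 5 lie below -1.

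In normal lungs 0 of the 10 genes differed over 2-fold between genotypes, beside 4.77% of 18718 genes called in either direction, and their median log2FC was -0.01. The counting interval left out 0 for Pou2af1, Sdc1 and Xbp1 alone, and those differences were between -0.37 and 0.08. For the genes with few counts the intervals were wide, and those of Derl3 and Eaf2 include a KO level 2-fold higher but not one 2-fold lower.

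The upstream sequences of the genes were searched for the elements through which the unfolded protein response acts, since many ER genes carry them. The set of RefSeq promoters used here holds 12 start sites for 9 of the 10 genes and has no entry for Mzb1. In the 250 bases before each start, on both strands, the ER stress response element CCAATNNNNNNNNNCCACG was found for Derl3 and Creld2. It occurs in 0.113% of the 32851 mouse promoters of the same length. The second form of it, ATTGGNCCACG, was found for none of the 9 genes and occurs in 0.0304% of promoters. The core of the element bound by XBP1, TGACGTG, was found for Pou2af1 and occurs in 1.65% of promoters. The shorter ACGT, which 26.9% of promoters hold, was found for Derl3, Xbp1, Eaf2 and Pou2af1, and in Pou2af1 it lies inside TGACGTG. A match is a string of letters and not a measured binding site. The 3 sequences with the longer elements are printed 5′ to 3′ with those elements in capitals, from RefSeq on GRCm38.p6, forward strand. They are chr10:75893148-75893397 for Derl3, with the reverse complement of the element at -156 to -138 from the start, chr15:88819396-88819645 for Creld2, also as the reverse complement, at -126 to -108, and chr9:51213440-51213689 for Pou2af1, at -61 to -55.
Derl3: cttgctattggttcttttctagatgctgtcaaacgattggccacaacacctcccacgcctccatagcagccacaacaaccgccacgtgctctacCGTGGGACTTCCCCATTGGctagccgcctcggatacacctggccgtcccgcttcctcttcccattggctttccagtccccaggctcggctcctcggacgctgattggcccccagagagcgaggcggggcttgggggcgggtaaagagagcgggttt
Creld2: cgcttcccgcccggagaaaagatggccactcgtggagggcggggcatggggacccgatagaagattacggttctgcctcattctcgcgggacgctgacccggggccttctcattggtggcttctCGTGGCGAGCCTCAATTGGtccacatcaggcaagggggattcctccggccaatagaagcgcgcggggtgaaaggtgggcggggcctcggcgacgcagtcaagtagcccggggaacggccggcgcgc
Pou2af1: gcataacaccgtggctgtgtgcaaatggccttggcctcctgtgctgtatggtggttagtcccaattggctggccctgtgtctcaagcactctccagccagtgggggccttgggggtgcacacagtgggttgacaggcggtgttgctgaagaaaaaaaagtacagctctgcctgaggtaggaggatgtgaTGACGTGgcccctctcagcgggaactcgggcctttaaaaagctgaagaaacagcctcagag

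The log2FC of KO over WT in OVA-induced lungs was -1.14 for Derl3 and -0.71 for Creld2, which hold the ER stress response element, and -0.36 for Pou2af1. It was -1.58 for Eaf2 and -0.30 for Xbp1, which hold the ACGT core alone. With none of the 4 strings, Fkbp11 had -1.91, Irf4 -1.64, Sdc1 -0.30 and Prdm1 0.04. These values are given side by side, and no relation between the strings and the differences was tested.

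In WT lungs, OVA-induced over normal, 6 of the 10 genes were over 2-fold higher, beside 8.99% of 19023 genes higher by this rule. Mzb1 was highest with a log2FC of 3.27 (2.97 to 3.59), or 9.66-fold, followed by Eaf2 with 2.92 (2.27 to 3.66) and Derl3 with 2.83 (2.23 to 3.50). Irf4 followed with 1.97 (1.71 to 2.23), Pou2af1 with 1.88 (1.69 to 2.07) and Creld2 with 1.36 (1.23 to 1.49). The intervals of Mzb1, Eaf2 and Derl3 overlap one another, and those of Mzb1 and Eaf2 lie wholly above those of Irf4 and Pou2af1. Fkbp11 (0.74) and Xbp1 (0.58) were higher by less than 2-fold, Sdc1 (-0.03) was level, and Prdm1 (-0.32) was lower. The median was 1.62.

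In KO lungs, 3 of the 10 genes were over 2-fold higher under OVA, beside 6.44% of 19073 genes, and 1 was over 2-fold lower, beside 3.85%. Pou2af1 now stood first with 1.89 (1.67 to 2.11), ahead of Derl3 with 1.26 (0.66 to 1.90) and Mzb1 with 1.23 (0.83 to 1.64). Its interval overlaps with that of Derl3 and lies just above that of Mzb1. Eaf2 (0.96), Creld2 (0.67), Irf4 (0.49) and Xbp1 (0.20) were higher by less than 2-fold, with intervals above 0. Eaf2 passed 2-fold with TPM (1.03) and with the length trend removed (1.05), which gives 4 genes over 2-fold higher in place of 3. The lower gene was Fkbp11, with -1.42 (-1.90 to -0.95). Sdc1 (-0.19) and Prdm1 (-0.29) were also lower, by less than 2-fold. The median was 0.58.

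The difference between the responses, KO minus WT on the log2 scale, uses all 4 libraries and holds the same numbers as the genotype differences above. It was below -1 for 5 genes, beside 9.14% of 19744 genes, with Fkbp11 at -2.15 (-2.75 to -1.57), Mzb1 at -2.05 (-2.56 to -1.53), Eaf2 at -1.96 (-2.99 to -0.95), Derl3 at -1.57 (-2.48 to -0.67) and Irf4 at -1.48 (-1.90 to -1.05). Creld2 (-0.69), Xbp1 (-0.38) and Sdc1 (-0.17) had smaller differences with intervals below 0, although with TPM Sdc1 stood at 0.13 and Xbp1 at -0.08. For Pou2af1 the difference was 0.01 with an interval of -0.28 to 0.30, and for Prdm1 it was 0.03 (-0.28 to 0.35). These intervals do not cover the choice of scale. With TPM the difference was 0.31 for Pou2af1 and 0.33 for Prdm1, and with the trend along gene length removed, a step described further on, it was 0.22 and -0.26.

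**Figure D3:**
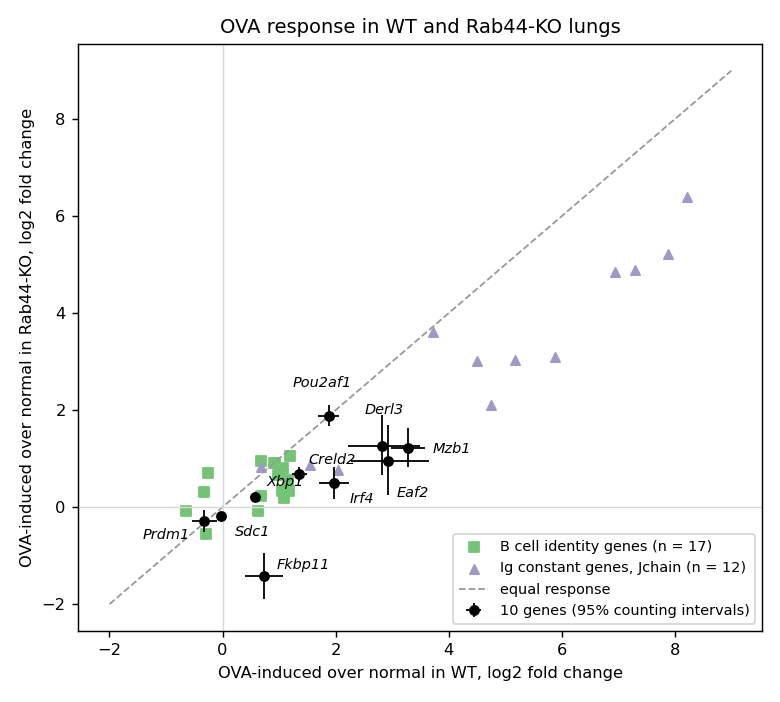
OVA-induced over normal log2FC in WT (x axis) against KO lungs (y axis) for the 10 genes (black, with 95% counting intervals), B cell identity genes (green squares) and immunoglobulin (Ig) constant genes with Jchain (purple triangles, those counted in all 4 libraries), with a dashed line where both responses are equal. Pou2af1 lies on the line at 1.88 and 1.89, Mzb1, Eaf2, Derl3 and Irf4 lie below it, and Fkbp11 lies above 0 in WT and below 0 in KO.

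As a share of the OVA-induced increase in CPM in WT lungs, the increase in KO lungs was 12.3% ± 2.0 for Mzb1, 12.4% ± 4.2 for Irf4 and 18.6% ± 6.7 for Eaf2, where the error is the counting SE. It was 30.7% ± 7.5 for Derl3, 32.3% ± 5.7 for Xbp1, 37.4% ± 4.4 for Creld2 and 77.9% ± 5.5 for Pou2af1. Fkbp11, which was lower under OVA in KO lungs, stood at -111% ± 30 of its small WT increase. The shares depend on the scale. In TPM, a comparison chosen after seeing the data, they were 16.6% for Mzb1, 19.7% for Irf4, 25.9% for Eaf2, 41.7% for Derl3, 58.2% for Creld2, 84.8% for Xbp1, 106% for Pou2af1 and -149% for Fkbp11. On both scales Mzb1, Irf4 and Eaf2 had the smallest positive shares of the 8 genes and Pou2af1 the largest, while that of Xbp1 differed most between the scales among the 7 with a positive share. Antibody genes also differed among themselves in this share. Ighm, the heavy chain of IgM, reached 13.3%, Ighg1 9.41% and the kappa chain gene Igkc 19.1% of the WT increase, whereas Igha, the heavy chain of IgA, reached 69.7% and Ighd, the heavy chain of IgD on mature B cells, 106% ± 16. In TPM these were 17.2%, 11.8%, 24.4%, 89.0% and 186%. The lambda chain genes had no common share, with Iglc2 at 17.3%, Iglc3 at 30.9% and Iglc1 at 83.7%, or 25.3%, 45.7% and 107% in TPM. The shares of the 13 B cell identity genes with an increase in WT lungs beyond 2 counting SE ran from -11.9% to 126%, with a median of 45.8%. In TPM they ran from 8.22% to 219%, with a median of 72.2%. Cd79b, part of the B cell receptor, stood at 19.2% ± 4.9, or 35.9% in TPM. A share needs an increase in WT lungs, its own denominator, so this selection can favour low shares. Sdc1 and Prdm1, not higher under OVA in WT lungs, have no share for this reason. Bach2, Ebf1, Bcl6 and Vpreb3 were left out likewise. Under OVA, Bach2 had a log2FC of -0.26 in WT and 0.70 in KO lungs, and Ebf1 -0.32 and 0.30. Bcl6 (-0.64 and -0.07) and Vpreb3 (-0.28 and -0.55) were below 0 in both. The medians thus do not describe all B cell identity genes.

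Levels of the 10 genes against each other were read from TPM, which is scaled by gene length. The place of Fkbp11 in these orders rests on its deposited length, which is near that of Mzb1. The longest GENCODE M21 transcript has 2411 bases for Fkbp11 and 904 for Mzb1. In normal WT lungs Sdc1 (210 TPM) and Xbp1 (175 TPM) led, followed by Creld2 (59.6 TPM). Fkbp11 (15.7 TPM), Pou2af1 (14.3 TPM) and Mzb1 (13.4 TPM) came next and do not differ beyond their counting intervals. Prdm1 (5.08 TPM) and Irf4 (3.96 TPM) were below them, with Derl3 (2.30 TPM) and Eaf2 (1.11 TPM) last, and each of these 4 overlaps with the next. Normal KO lungs had the same order. There the overlapping neighbours were Sdc1 and Xbp1, Pou2af1 and Mzb1, and Irf4 and Derl3.

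In OVA WT lungs Xbp1 (232 TPM) led, Mzb1 (115 TPM) stood behind Sdc1 (182 TPM) and Creld2 (136 TPM), and Prdm1 (3.60 TPM) was last. In OVA KO lungs Mzb1 (27.7 TPM) stood below Pou2af1 (45.5 TPM), and Eaf2 (3.11 TPM) was last. Of neighbours in these orders, Derl3 and Irf4 overlap in WT, Derl3 and Fkbp11, Fkbp11 and Irf4, and Irf4 and Prdm1 overlap in KO lungs.

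By the annotation in the deposited table, 5 carry an ER term and 5 a nuclear term, Xbp1 both and Sdc1 neither. Of the 4 ER genes other than Xbp1, 3 were over 2-fold lower in OVA KO lungs (median log2FC -1.53), Derl3 among them, which TPM puts within 2-fold, and of the 5 factors, 2 were (median -0.36).

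Other genes that plasma cells use were set beside the 10. Of 13 such genes, 3 were over 2-fold lower in OVA KO than in OVA WT lungs and 0 higher, with a median of -0.64. Jchain, which joins IgM and IgA into polymers, went from 15799 counts in WT to 4761 in KO (-1.74, -1.79 to -1.69), Slamf7 from 598 to 215 (-1.48) and Tnfrsf13b, the receptor TACI, from 555 to 295 (-0.92). The other gene over 2-fold lower was Tnfrsf17, the receptor BCMA of long-lived plasma cells, which had only 46 and 9 counts (-2.35, -3.58 to -1.32) and is named here for completeness of that count. Of 13 Ig constant genes, counting Jchain again, 10 were over 2-fold lower with a median of -1.74. Ighg1 had 10764 counts in WT and 1043 in KO lungs (-3.38, -3.47 to -3.29), Ighm had 56984 and 9570 (-2.58, -2.61 to -2.55), and Ighg2c had 6981 and 1365 (-2.36). Igkc (-2.24), Ighg3 (-2.08), Iglc2 (-1.66), Ighg2b (-1.62) and Iglc3 (-1.16) were also over 2-fold lower. Igha (-0.40), Iglc1 (-0.25) and Ighd (-0.12) lay within 2-fold, and reads of the closely related constant genes may have been split between them. The whole list summed to 285 CPM in normal WT, 330 in normal KO, 8639 in OVA WT and 2269 in OVA KO lungs. It was thus far higher in both OVA-induced libraries, and of these lower in KO. In normal lungs Jchain, with 266 counts in WT and 521 in KO (log2FC 1.04, 0.83 to 1.26), and Igha, with 689 and 1396 (1.09, 0.96 to 1.23), were instead over 2-fold higher in KO. B cell identity genes differed less: of 17 tested, 2 were over 2-fold lower and 0 higher, with a median of -0.56, and those 2 were Cd79b (-1.08) and Fcrla (-1.08). They did not all go the same way, since 14 were below 0 and 3 above it. Those 3 were Bach2, with 358 counts in WT and 655 in KO lungs (0.86, 0.67 to 1.05), Ebf1 (0.50) and Bcl6 (0.18).

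The same lists under OVA give a frame for the responses of the 10 genes, whose medians were 1.62 in WT and 0.58 in KO lungs. Of the other plasma cell genes, 6 of 13 were over 2-fold higher in WT (median 0.94) and 2 of 12 in KO lungs (median 0.18). Of the Ig constant genes, 12 of 13 were over 2-fold higher in WT (median 4.75) and 10 of 13 in KO lungs (median 3.10). Of B cell identity genes, 7 of 17 were over 2-fold higher in WT (median 0.92) and 1 of 17 in KO lungs (median 0.56). Of all genes, 8.99% were over 2-fold higher in WT and 6.44% in KO lungs, so the count of B cell identity genes in KO lungs is near the background. Antibody genes were thus higher under OVA in both genotypes, as were Pou2af1, Mzb1 and Derl3.

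The general machinery of the ER was followed with lists from which the 10 genes had been removed, and the counts over 2-fold lower in the 3 lists were below the 7.34% of all genes. Of 25 chaperones and folding enzymes, 1 was over 2-fold lower in OVA KO lungs, Sdf2l1, which went from 935 to 440 counts (-1.10), and the median was -0.38. Ppib (-0.84) and Manf (-0.78), an isomerase and a stress-induced secreted protein of the ER, came next. Of 30 genes of ER translocation, signal peptidase and vesicle transport, 1 was over 2-fold lower, the signal peptidase subunit Sec11c (-1.17), followed by Sec61b (-0.97) and Ostc (-0.88), and the median was -0.39. Of 12 genes of ER-associated degradation 0 were over 2-fold in either direction, the median was -0.21, and Edem2 (-0.66), Edem3 (0.56) and Edem1 (-0.48) differed most. These lists had medians above the -1.53 of the 4 ER genes of the programme other than Xbp1, a contrast read on CPM alone. With TPM, Mzb1, Fkbp11, Derl3 and Creld2 stood at -2.05, -1.57, -0.81 and -0.38. With the trend along gene length removed they stood at -1.92, -1.49, -0.76 and -0.38. The medians of the 3 lists were not taken in these settings.

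Sensors and factors of the unfolded protein response moved in no shared direction. Of 9 tested, Trib3 was over 2-fold lower (-1.06) and Creb3l2 over 2-fold higher (1.01), Ddit3, which encodes CHOP, was at -0.96, and the median was 0.18. Of 18 cytokines and receptors that act on plasma cells, 7 were over 2-fold lower and 2 higher (median -0.75). Tnfrsf13c, the BAFF receptor, went from 257 to 92 counts (-1.49), Il21r from 357 to 154 (-1.22) and Il6ra from 616 to 1380 (1.15).

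**Figure D4:**
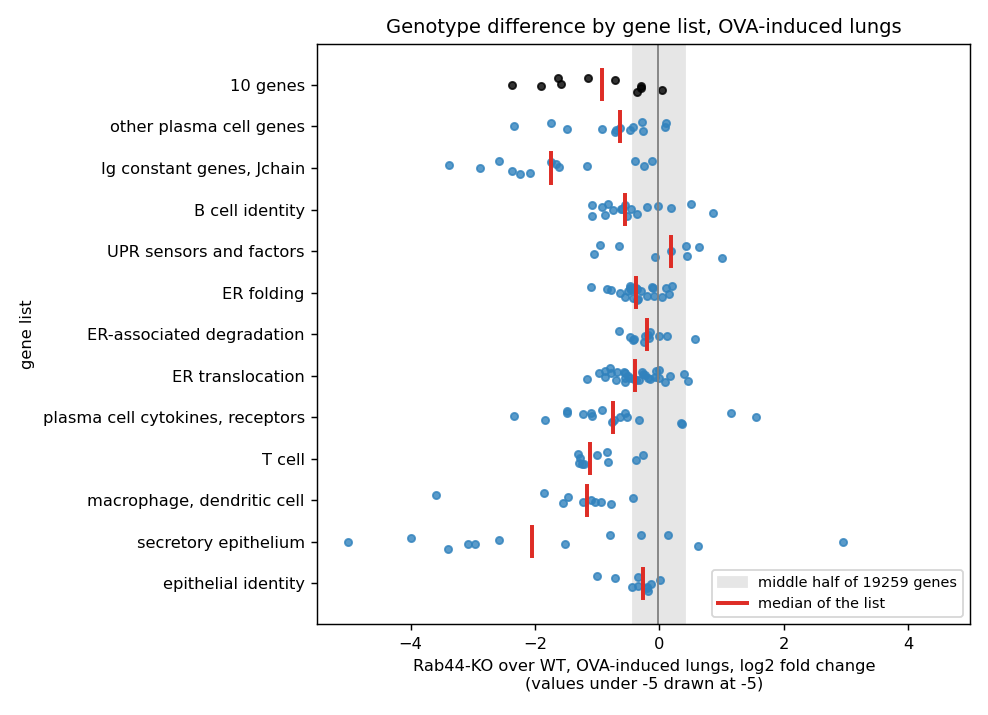
Log2FC of KO over WT in OVA-induced lungs (x axis) for each gene of the lists named on the y axis, 1 point per gene with at least 10 counts, with a red bar at each list median and a grey band from the lower to the upper quartile of all genes (-0.42 to 0.42). The medians run from -2.05 in secretory epithelium to 0.18 in the sensors and factors of the unfolded protein response, and the 10 genes stand at -0.93.

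Markers of other cell types moved between the same libraries. In OVA KO against WT lungs, 6 of 10 T cell markers were over 2-fold lower (summed level 76.5 against 152 CPM, and 67.8 to 70.6 CPM in normal lungs). The same held for 7 of 10 macrophage and dendritic cell markers (387 against 806 CPM, and 349 to 367 in normal lungs) and for 5 of 7 eosinophil markers (134 against 214 CPM, and 104 to 107 in normal lungs), with Epx at 0 counts in every library except OVA WT, where it had 1. The members of these lists that differed most were Trac (-1.31), Icos (-1.30) and Cd3d (-1.28) of T cells, Marco (-3.59), Cd68 (-1.86) and Xcr1 (-1.55) of macrophages and dendritic cells, and Ear6 (-3.77), Ccr3 (-2.39) and Prg2 (-1.95) of eosinophils. Of 12 secretory epithelium markers, 7 were over 2-fold lower and 1 higher, among them Clca1 (-8.77), Muc5ac (-3.99) and Tff2 (-3.40), although their summed level, carried by genes such as Scgb1a1, was 19180 against 19120 CPM. Of 10 epithelial identity genes 1 was over 2-fold lower, Sftpc, with a log2FC of -1.01, followed by Ager (-0.72) and Epcam (-0.44). Of the genes of lymph node and thymus, 3 were tested and 0 differed over 2-fold, with Ccl21a at -0.62 and Cr2 at -0.03. No T cell, macrophage or epithelial marker was at 0 in any library. Since such cells are also known to express Irf4, Prdm1, Xbp1 or Sdc1, their part in the levels of these genes was not tested. Mzb1, Derl3, Pou2af1 and Eaf2, the genes of the 10 not known as widely used by other lung cells, had a median of -1.36 by themselves. They ran from -2.38 for Mzb1 to -0.36 for Pou2af1. With TPM these 4 stood at -2.05, -0.81, -0.04 and -1.23, in the order named.

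Gene length moved with the result as well. In OVA-induced lungs the median log2FC of KO over WT was -0.41 in the 20% of genes that are shortest and 0.37 in the 20% that are longest, against -0.04 and 0.06 in normal lungs. By the length that underlies the deposited TPM, Mzb1 and Fkbp11 are short, at the 7.37 and 7.89 percentile, and Prdm1 is long, at the 89.3 percentile. The longest GENCODE M21 transcript has 904 bases for Mzb1 but 2411 for Fkbp11, so the length-adjusted value of Fkbp11 rests on the deposited length. After subtraction of the running median along length, a step chosen after seeing the data, Mzb1 stood at -1.92, Irf4 at -1.69, Fkbp11 at -1.49 and Eaf2 at -1.37. Derl3, at -0.76, was then within 2-fold, and Creld2 (-0.38), Prdm1 (-0.28), Sdc1 (-0.20), Pou2af1 (-0.13) and Xbp1 (-0.04) were all small. What the trend with length comes from was not tested.

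**Figure D5:**
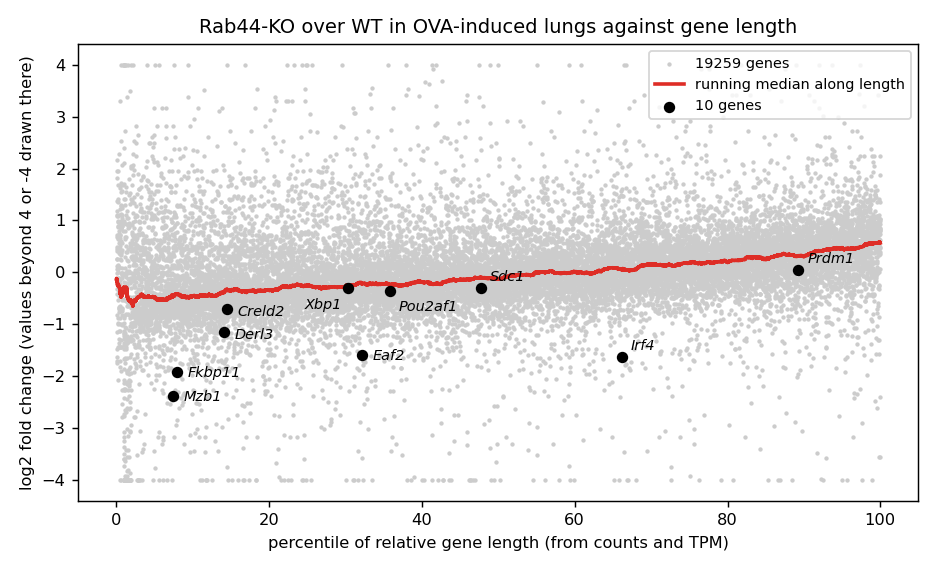
Log2FC of KO over WT in OVA-induced lungs (y axis) against the percentile of gene length (x axis) for 19259 genes (grey), with the running median along length (red) and the 10 genes (black). The running median is -0.46 at Mzb1 and 0.32 at Prdm1, and Mzb1, Fkbp11, Irf4 and Eaf2 lie more than 1.36 below it.

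Genes with a pattern like that of the 10 were ranked by the distance between their 4 log2 CPM values, each centred on its own mean. Of 13889 genes with at least 100 counts in their highest library, the 8 nearest to the median pattern of the 10 were Il1rl1, Panct2, Cilp, Cd84, Cxcr6, Tbxas1, Adgre1 and Mmp19. Il1rl1, the IL-33 receptor, had 122, 106, 352 and 173 counts, at a distance of 0.08. Among the genes nearest to Mzb1, of 13898 genes, were Xist, Gpnmb, Chil3 and Ahsp, and Gpnmb had 303, 271, 3546 and 452 counts, at a distance of 0.49. Among the 10 themselves, Eaf2 ranked 18, Derl3 42, Irf4 57, Pou2af1 140 and Creld2 281 by closeness to Mzb1, Xbp1 ranked 1447, Fkbp11 3810 and Sdc1 6212, and Prdm1 was farthest at 10668. With 4 libraries, many genes of unlike function share such a pattern.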

How the data were processed

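Lung RNA was sequenced as 150-bp paired-end reads from a directional library kit. The authors aligned reads with HISAT2 to GRCm38 and deposited raw counts per gene from featureCounts. Tool versions and the handling of strand and multi-mapping reads are not given in the sources used here. The authors also deposited TPM, which is each count divided by a fixed gene length and a factor of the library. Gene starts in the table equal those of GENCODE M21 for 0.857% of 28949 matched genes and those of RefSeq on GRCm38.p6 for 2.13% of 36990. The annotation behind the counts was thus not identified, and positions are from GENCODE M21 on GRCm38. Exon overlaps, shared windows and transcript lengths are also from GENCODE M21 and may not describe the annotation used for counting.

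Counts were scaled with edgeR 4.0.16 in R 4.3.3 (TMM factors 0.973 to 1.02), and log2FC was taken with a prior count of 0.125. Count ratios have exact Clopper-Pearson intervals, levels have Poisson intervals, and differences of responses have conditional odds-ratio intervals (Python 3.11.15, scipy 1.17.1). The steps were run on simulated Poisson counts without variation between animals and without a trend along length. That run checks the computation and not the design. No p-value was computed, since 2 libraries leave no residual degrees of freedom.

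The 10 genes and all lists were chosen with earlier results of these data known. The text names the 10 genes, Rab44, the 3 genes per list with the largest OVA-induced log2FC and at least 100 counts, Ig constant genes with at least 100 counts, and the nearest patterns by rank, of which some are not reported here. Tnfrsf17, Epx, Scgb1a1, Spata24, Bach2, Ebf1, Bcl6, Vpreb3 and the sex-linked genes were added after their values were seen. Alternatives were DESeq2 1.42.0 size factors, a prior count of 2, total counts, TMM with immunoglobulin genes left out, TPM with a pseudocount of 0.1, no count minimum or one of 50, stricter calls, the 4 narrower genes alone, removal of the trend with length and, for the shares of the WT increase, TPM.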

Additional observations from a re-analysis of the deposited data

Results flagged for a closer look

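Fkbp11 moved in opposite directions under OVA in the genotypes, with a response of 0.74 in WT and -1.42 in KO mice on the log2 scale, both with counting intervals that leave out 0, and the difference was not tested against replicates. Xbp1 had genotype differences of opposite sign, 0.08 in normal and -0.3 in OVA-induced lungs, and this difference was not tested either. With TPM the OVA-induced value of Xbp1 was 0.03, so its sign there depends on the scale.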

How the results depend on the processing

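No paired analysis was possible because each condition has 1 library, and for the same reason no library could be left out in turn. Over 6 other scalings and settings, the genotype difference in OVA-induced lungs kept its sign and its side of 2-fold for Mzb1, Fkbp11, Irf4 and Eaf2, whereas Derl3 came within 2-fold with TPM and with the length trend removed, down to -0.76. Xbp1 and Sdc1 changed sign with TPM (to 0.03 each) and Prdm1 with the length trend removed (to -0.28). The OVA response of Eaf2 in KO lungs, 0.96, ranged from 0.91 to 1.05. The median of the 10 genes, KO over WT in OVA-induced lungs, went from -0.93 to -0.60 with TPM, -0.57 with the length trend removed and -1.36 with the 4 narrower genes. The median response in WT went from 1.62 to 1.44 with TPM and 2.87 with the 4 genes, that in KO from 0.58 to 1.24 and the difference of responses from -1.08 to -1.77 with the 4 genes. Beyond a log2FC of 2, 1 gene was lower between the OVA-induced libraries, 3 were higher in WT and 0 higher and 0 lower in KO under OVA, and 2 had a lower response. With counting intervals wholly beyond 2-fold, 1 gene was higher and 0 lower in KO under OVA, and 3 had a lower response. TPM shifts the median of all genes by 0.32 in the OVA-induced genotype comparison, -0.17 and 0.12 in the WT and KO responses and 0.29 in their difference. With it, 2602 genes were over 2-fold higher and 777 lower in OVA-induced KO lungs in place of 1617 and 1413, 481 in place of 734 were lower in the KO response, and 1088 in place of 1804 in the difference of responses. Normal-lung values of Derl3 and Eaf2, with 21 to 32 counts, are limited by depth.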
